A study of Mus musculus with 4 samples.

Results

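The 7 genes that set the size and shape of lipid droplets were followed here in cold-exposed inguinal white adipose tissue (ingWAT) with and without *Oct3* in adipocytes. They are the 3 CIDE genes *Cidea*, *Cideb* and *Cidec*, then *Clstn3*, the FIT genes *Fitm1* and *Fitm2*, and *Bscl2*, which encodes seipin. Each was taken by its symbol from the expression table, giving 7 of the 19030 genes listed. Ctrl mice were Oct3 fl/fl, and cKO mice carried Adiponectin-Cre on the same floxed alleles. Adiponectin-Cre removes *Oct3*, an uptake transporter for norepinephrine, in adipocytes of every fat depot and spares the other cells of the tissue. All animals were labelled as C57BL/6 mice aged 3 months and kept at 4°C, with no warm group. RNA was sequenced from 2 libraries of each genotype, and it is not stated whether a library is 1 mouse or a pool, so p-values measure only the spread between these libraries.

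A lipid droplet is a core of neutral fat inside a phospholipid layer coated with proteins, and it grows from the endoplasmic reticulum. Seipin and the FIT proteins act where the droplet forms and buds. CIDE proteins sit where droplets touch and let fat pass from the smaller to the larger one, which favours the single large droplet of a white adipocyte. Brown and beige adipocytes hold many small droplets, and an adipocyte form of calsyntenin 3 made from *Clstn3* is known to hold back CIDE-driven fusion.

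Levels are given as FPKM, fragment counts scaled to transcript length and to the mapped reads of the library, which allows levels of different genes to be set side by side. The genotypes were set against each other in limma on the scale of log2(FPKM + 1), so that a log2 fold change understates the change of a gene of low level. A gene was called at a Benjamini-Hochberg adjusted p under 0.05 over the 12658 genes with a mean of at least 1 FPKM. The targeted gene *Slc22a3* (*Oct3*) read 16.95 and 17.68 FPKM in Ctrl and 9.07 and 9.5 in cKO, with an adjusted p of 0.000439 in limma. By depth estimated from the values, the libraries held 17400000 to 18150000 reads. All 9 white adipocyte markers were measured, with sums of 30699 to 32111 FPKM in Ctrl and 23786 to 24123 in cKO, and 6 of the 9 were called lower (1 without Ctrl replicate 1, 2 without Ctrl replicate 2, 3 without the filter and 4 with the replicate number as a block). All 12 skeletal muscle markers tested were called lower in cKO, and all 4 B cell markers were called higher. The B cell markers summed to 190 and 215 FPKM in Ctrl and to 305 and 345 FPKM in cKO. Of the 4 macrophage markers, 1 was called higher, 2 were called lower and 1 was not called. Over all genes tested, 12.0% were called higher and 13.8% lower. In whole tissue, fewer cells of a type and less RNA per cell cannot be told apart.

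*Cidea*, *Cideb* and *Clstn3* were higher in cKO ingWAT, *Fitm1* was lower, and *Cidec*, *Fitm2* and *Bscl2* did not pass the test. Of the 7 genes, 3 were called higher, where 12.0% of all genes tested were, and 1 was called lower, where 13.8% were. Counted in either direction this is 4 of 7, against 25.8% of all genes tested. In 6 of the 7 genes the Ctrl and cKO libraries did not overlap, as was so for 66.5% of all genes tested. Both cKO libraries lay above both Ctrl libraries in 4 genes (31.9% of all genes tested) and below them in 2 (34.6%). The median log2 fold change of the 7 was 0.07, beside -0.01 over all genes tested. All 7 passed the filter on low values, but *Cideb* and *Fitm1* did so only through the genotype in which they are higher, so these counts describe the genes and are no test of them as a group.

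*Cidec* was the highest of the 7 in each library, followed by *Cidea*, *Bscl2*, *Fitm2* and *Clstn3* in each library. *Fitm1* ranked sixth and *Cideb* seventh in Ctrl, and the order of these 2 was exchanged in cKO. By mean FPKM over the 4 libraries, *Cidec* held rank 44 of the 12658 genes tested and *Cidea* rank 107. *Bscl2* held rank 323, *Fitm2* rank 1373, *Clstn3* rank 1877, *Fitm1* rank 11177 and *Cideb* rank 11940. Among neighbours in this order, *Cidec* and *Cidea* were apart by more than their spread in Ctrl, whereas in cKO their means lay within the SD of *Cidea*. The same held for *Fitm2* and *Clstn3*, which were clearly apart in Ctrl and lay just within the SD of *Clstn3* in cKO.

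**Figure D1:**
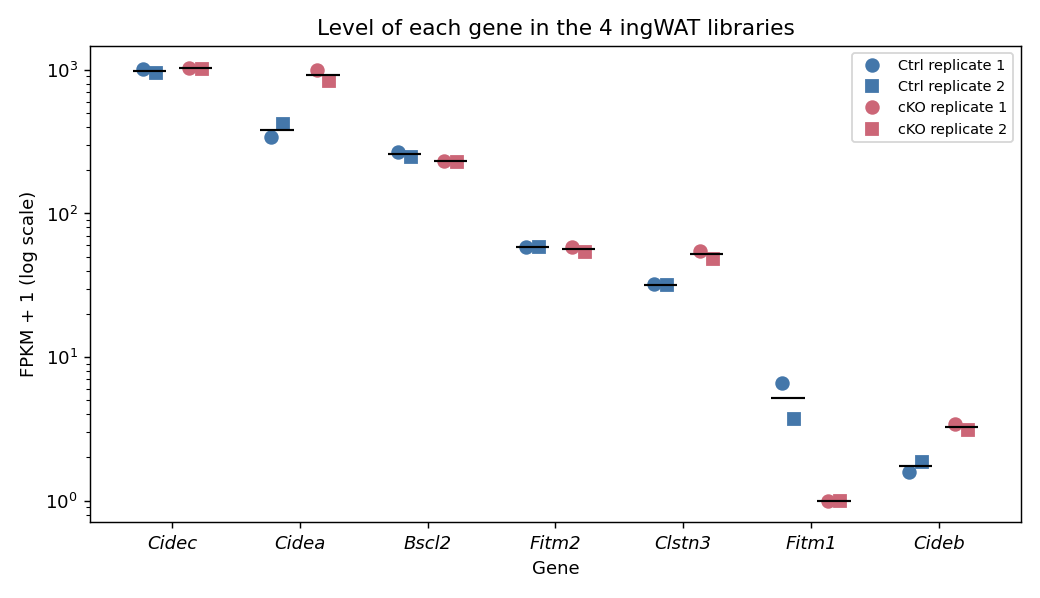
Level of each gene in each library, as FPKM + 1 on a log axis, with Ctrl in blue, cKO in red and black bars at the group means of 2 libraries. *Cidea*, *Clstn3* and *Cideb* lie higher in both cKO libraries than in either Ctrl library, and *Fitm1* drops to the bottom of the axis, which stands for 0 FPKM.

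*Cidea*, the CIDE gene of brown and beige adipocytes, lies on chromosome 18. It read 341.89 and 416.39 FPKM in the Ctrl libraries and 1001.48 and 839.32 FPKM in the cKO libraries. Both cKO libraries stood above both Ctrl libraries, and within a genotype the higher library was 1.22 times (Ctrl) and 1.19 times (cKO) the lower. The Ctrl mean was 379 ± 52.7 FPKM and the cKO mean 920 ± 115 FPKM (SD, n = 2 each), 2.43-fold higher. In limma the log2 fold change was 1.28 (SE 0.12, 95% interval 0.996 to 1.56, adjusted p = 0.000769). Ranked by log2 fold change, *Cidea* was number 46 of the genes tested. *B430212C06Rik*, annotated on the opposite strand across the gene, read 3.03 to 5.59 FPKM.

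Together with *Cidea*, the other 7 markers of brown and beige adipocytes in the list were called higher, where 12.0% of all genes tested were. The list of 8, with *Cidea* counted in it, summed to 1555 and 1845 FPKM in Ctrl and to 4909 and 4153 FPKM in cKO. *Ucp1*, the uncoupling protein of brown fat, had a log2 fold change of 1.99, and *Cox7a1*, a respiratory chain subunit, of 1.48. The median log2 fold change of the list was 1.45, with *Cidea*, at 1.28, counted in it. The genes whose pattern over the 4 libraries was closest to that of *Cidea*, by Euclidean distance between centred log2(FPKM + 1) values, were *Letmd1* (0.0447), *Pfkl* (0.0532) and *Aspg* (0.0806). *Letmd1* read 59.91 and 76.38 FPKM in Ctrl and 180.11 and 152.28 FPKM in cKO.

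*Cidec*, also known as Fsp27, is the main CIDE gene of white adipocytes and lies at chr6:113424634-113435760 on the minus strand (GRCm38.p6). Its level was 1010.59 and 947.91 FPKM in Ctrl and 1036.81 and 1012.92 FPKM in cKO. The cKO libraries stood barely above the Ctrl libraries. This single value per library covers 2 of the 3 RefSeq transcripts of *Cidec*, so forms of the gene were not separated. The mean was 979 ± 44.3 FPKM for Ctrl and 1025 ± 16.9 FPKM for cKO (SD, n = 2 each). The log2 fold change was 0.07 (95% interval -0.11 to 0.24, limma adjusted p = 0.559), and after quantile normalization its sign turned, to -0.03. The interval runs from 0.926 to 1.18 on the linear scale of FPKM + 1, so a rise of the size seen for *Cidea* lies outside it. *Ncaph* (distance 0.0167), *Rnaseh2c* (0.017) and *Hnrnpul1* (0.0185) had the nearest patterns, by the measure used for *Cidea*.

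*Cideb*, best known from liver and intestine, where it acts in lipoprotein loading, lies at chr14:55754052-55758424 on the minus strand. It read 0.59 and 0.87 FPKM in Ctrl and 2.4 and 2.08 FPKM in cKO. At the estimated depth these values stand for about 12.6 and 18.2 reads in Ctrl and 49.1 and 42.9 reads in cKO. The gene was thus low in both genotypes, and the groups did not overlap. Means were 0.73 ± 0.198 and 2.24 ± 0.226 FPKM (SD, n = 2 each), a 3.07-fold difference on few reads. The log2 fold change was 0.91 (SE 0.133, limma adjusted p = 0.0034) with a pseudocount of 1 and 1.51 with a pseudocount of 0.1.

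Hepatocyte and epithelial markers were set beside *Cideb*, since cells of those kinds express it. The 4 hepatocyte markers in the table summed to 26.6 and 26.4 FPKM in Ctrl and to 13.2 and 16.9 FPKM in cKO. *Alb* made up most of each sum, at 24.42 and 24.41 FPKM in Ctrl and 11.47 and 14.89 FPKM in cKO. Of the 2 tested, *Alb* was called lower and *Serpina1a* was not called. *Ttr*, which encodes transthyretin, was listed at 0 in 3 of the 4 libraries. The 5 epithelial markers summed to 1.36 to 2.09 FPKM in every library and none reached the test. *Nop9* overlaps *Cideb* on the opposite strand and read 6.35 and 6.16 FPKM in Ctrl and 6.84 and 7.24 FPKM in cKO. As the libraries are not stated to keep strand, reads of these 2 genes in the shared stretch cannot be told apart. The nearest patterns to *Cideb* belonged to *Lace1* (distance 0.0277), the droplet coat gene *Plin5* (0.0477) and *Ogdh* (0.05).

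Within the CIDE family, *Cidea* held a larger share of the transcripts in both cKO libraries. The summed level of the 3 genes was 1353 and 1365 FPKM in Ctrl and 2041 and 1854 FPKM in cKO. *Cidea* made up 25.3% and 30.5% of that sum in Ctrl and 49.1% and 45.3% in cKO. *Cidec* made up 74.7% and 69.4% in Ctrl and 50.8% and 54.6% in cKO, and the share of *Cideb* lay between 0.0436% and 0.118% throughout. The ratio of *Cidea* to *Cidec* was 0.338 and 0.439 in Ctrl and 0.966 and 0.829 in cKO. On the log2 scale the ratio was -1.38 ± 0.27 for Ctrl and -0.16 ± 0.16 for cKO (SD, n = 2 per genotype), or 1.21 apart. The exact two-sided permutation test gave p = 0.333, the smallest value that 2 libraries against 2 allow.

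**Figure D2:**
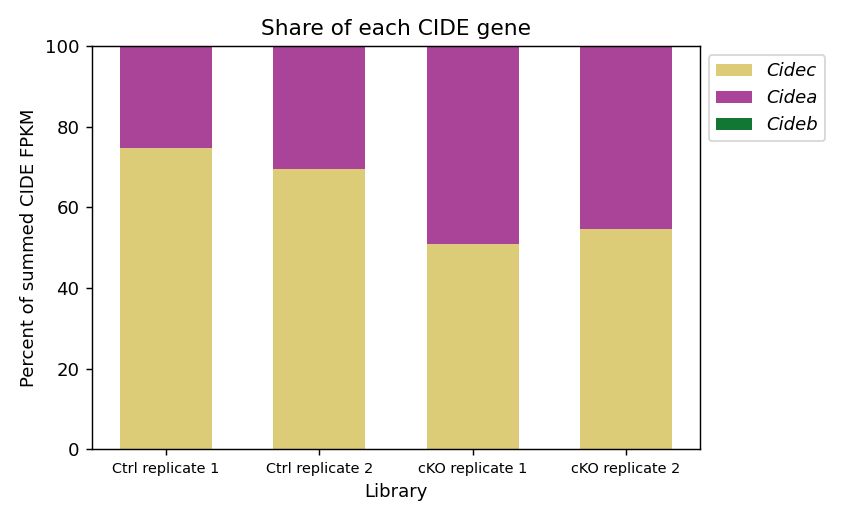
Percent of the summed FPKM of the 3 CIDE genes held by each gene, with 1 bar per library. *Cidea* holds 25.3% and 30.5% in the Ctrl libraries and 49.1% and 45.3% in the cKO libraries, while *Cideb*, at 0.118% or less, is too thin to be seen.

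*Clstn3*, the source of the protein that restrains CIDE-driven fusion, lies at chr6:124430756-124464784 on the minus strand. Its level was 31.09 and 30.61 FPKM in Ctrl and 54.06 and 47.56 FPKM in cKO. The Ctrl libraries were nearly equal, and both cKO libraries stood well clear of them. Ctrl averaged 30.9 ± 0.339 FPKM and cKO 50.8 ± 4.6 FPKM (SD, n = 2 each), which is 1.65-fold higher. The limma log2 fold change was 0.70 (SE 0.0724, 95% interval 0.53 to 0.87, adjusted p = 0.00107). The table lists 1 of the 2 RefSeq transcripts of *Clstn3* and gives a single value per gene, so the adipocyte form and the neuronal form were not separated. Neuron markers, of which none reached the test, summed to 0.8 to 1.21 FPKM in every library.

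Set against *Clstn3* in the same library, *Cidea* was 11.0 and 13.6 times as high in Ctrl and 18.5 and 17.6 times as high in cKO. *Cidec* was 32.5 and 31.0 times as high as *Clstn3* in Ctrl and 19.2 and 21.3 times in cKO. *Cidea* was thus higher against *Clstn3*, and *Cidec* lower against it, in both cKO libraries, with an exact permutation p of 0.333 for either ratio, again the smallest possible. The forms of *Clstn3* were not separated, so these ratios are not set against the adipocyte form alone. The nearest patterns to *Clstn3* belonged to *Oas3* (distance 0.0371), *Pvrl2* (0.0488) and *Kcnk3* (0.0533). *Kcnk3*, a potassium channel gene, read 44.07 and 43.56 FPKM in Ctrl and 79.77 and 67.16 FPKM in cKO.

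The DNA before the start of 3 genes is printed, *Clstn3* and *Cideb*, which rose, and *Cidec*, which was not called. *Fitm1*, the gene called lower, is not among them. Sequences are from RefSeq (GRCm38.p6), written 5′ to 3′ on the minus strand, on which all 3 genes lie. *Clstn3* is shown at chr6:124464772-124464974, from -190 to 13 about the start. *Cideb* is shown at chr14:55758459-55758658, from -234 to -35. *Cidec* is shown at chr6:113435761-113435960, from -200 to -1. Capitals mark matches to the motifs named after the sequences.
Clstn3: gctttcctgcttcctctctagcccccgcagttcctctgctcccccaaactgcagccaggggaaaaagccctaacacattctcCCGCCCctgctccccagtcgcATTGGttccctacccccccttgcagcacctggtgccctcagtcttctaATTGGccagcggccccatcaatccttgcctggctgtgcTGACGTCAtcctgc
Cideb: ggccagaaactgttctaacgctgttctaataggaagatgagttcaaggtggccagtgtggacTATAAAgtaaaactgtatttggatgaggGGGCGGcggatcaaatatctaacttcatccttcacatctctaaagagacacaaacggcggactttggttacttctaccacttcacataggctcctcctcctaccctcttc
Cidec: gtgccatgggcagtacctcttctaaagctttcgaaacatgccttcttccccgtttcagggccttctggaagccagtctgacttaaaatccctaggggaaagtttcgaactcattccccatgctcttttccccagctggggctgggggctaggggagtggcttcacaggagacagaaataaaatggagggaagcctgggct

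In all, 6 motifs were searched on both strands in windows of 300 bases, 250 before and 50 after each start. Of the 2 windows of *Clstn3*, the printed one held a CRE (TGACGTCA), the element bound by factors that answer to cyclic AMP, starting at -1, and the other held none of the 6 motifs. This motif lies in 1.79% of the 32851 promoter windows. The start in the printed window is the outer end of the gene as annotated, at chr6:124464784. Which form of *Clstn3*, adipocyte or neuronal, starts at either window was not determined, so the CRE cannot be assigned to the adipocyte form. The printed window of *Clstn3* also held a GC box (GGGCGG, in 35.7% of windows) at -108 and CCAAT boxes (CCAAT, in 37.4% of windows) at -87 and -39, each read on the opposite strand and printed as their reverse complement. *Cideb* held a TATA box (TATAAA, in 13.6% of windows) at -172 and a GC box at -144. *Cidec* held none of the 6 motifs in either of its windows, and *Fitm1* held none in its window. *Fitm2*, which was not called, held a GC box at -68. *Bscl2*, also not called, held 3 CCAAT boxes in 1 window, a GC box at 5 in another and none of the 6 motifs in the remaining window. An ERR element (TCAAGGTCA, in 0.423% of windows) and a PPAR element (a direct repeat of AGGTCA with 1 base between, in 0.0396% of windows) were found in none of the 10 windows of the 6 genes searched. The promoter of *Cidea* was not analysed here. No matches overlapped in the printed windows, and a match is a description of the letters only.

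*Fitm1*, the FIT gene of skeletal muscle and heart, lies at chr14:55575674-55576952 on the plus strand. Its level was 5.61 and 2.71 FPKM in the Ctrl libraries, and it was listed at 0 in both cKO libraries. The Ctrl values stand for about 95.2 and 45.1 reads at the estimated depth. Ctrl replicate 1 was 2.07 times Ctrl replicate 2, the widest gap between replicates among the 7 genes. The difference was called lower (limma adjusted p = 0.00122), and no fold is given against a group listed at 0. In all, 12 genes tested were listed at 0 in both cKO libraries, and 2 of these had a Ctrl mean at or above that of *Fitm1*, which counts *Fitm1* itself. *Gm15932* overlaps *Fitm1* on the opposite strand and was not analysed here.

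Skeletal muscle markers moved with *Fitm1*. The 14 markers summed to 2704 FPKM in Ctrl replicate 1, to 1843 FPKM in Ctrl replicate 2 and to 48.4 and 47.9 FPKM in the cKO libraries. Each of the 12 markers tested was called lower, where 13.8% of all genes tested were. The median of the markers was -6.22 on the log2 scale, and none was listed at 0 in any library. The pattern nearest to *Fitm1* was that of *Ckmt2*, the creatine kinase of muscle mitochondria (distance 0.14), which read 5.18 and 2.98 FPKM in Ctrl and was listed at 0 in cKO. *Hrc* and *Tpm1*, which encode proteins of the calcium store and the thin filament of muscle, followed at 0.285 and 0.302. The part of muscle RNA in the level of *Fitm1* was not tested.

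*Fitm2*, the FIT gene of most tissues including fat, lies at chr2:163468703-163472629 on the minus strand. It read 57.55 and 56.94 FPKM in Ctrl and 57.83 and 52.98 FPKM in cKO. Here the groups overlapped, and cKO replicate 1 was the highest of the 4 libraries. Means were 57.2 ± 0.431 and 55.4 ± 3.43 FPKM (SD, n = 2 each). The log2 fold change was -0.05 (95% interval -0.19 to 0.10, limma adjusted p = 0.618), and without cKO replicate 2 it was 0.01. On the linear scale of FPKM + 1 the interval runs from 0.874 to 1.07. The nearest patterns were those of *Prkce* (distance 0.0189), *Itfg2* (0.0191) and *Mapk8* (0.0231). *2310001K24Rik* overlaps *Fitm2* on the opposite strand and read 0.79 and 0.67 FPKM in Ctrl and 1.26 and 1.79 FPKM in cKO. *Fitm1* made up 8.88% and 4.54% of the summed FPKM of both FIT genes in Ctrl, and 0% in cKO.

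**Figure D3:**
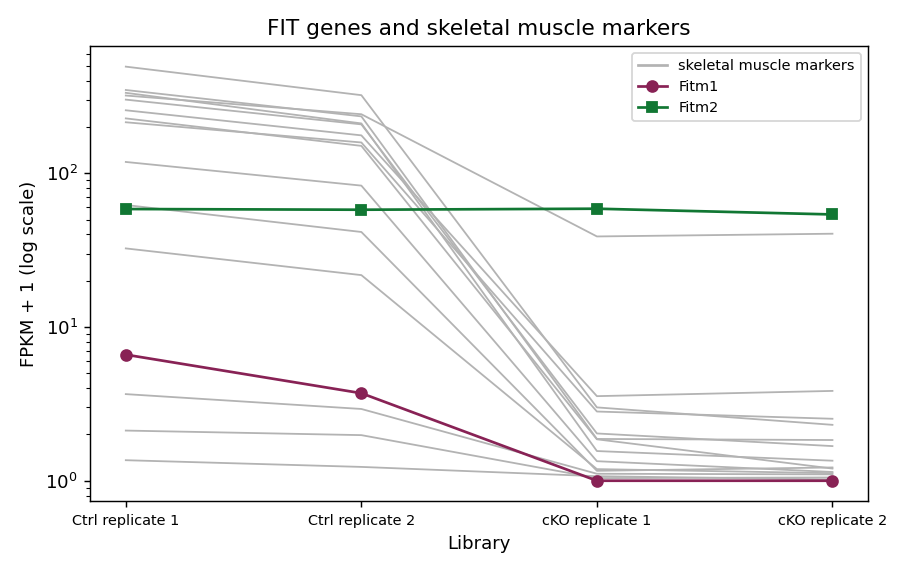
FPKM + 1 on a log axis for *Fitm1*, *Fitm2* and the 14 skeletal muscle markers in each library, with lines joining the values of 1 gene. *Fitm1* and the muscle markers are lower in both cKO libraries than in either Ctrl library, with *Myl1* the highest of them in cKO at 37.83 and 39.45 FPKM, whereas *Fitm2* stays between 52.98 and 57.83 FPKM in all 4.

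*Bscl2*, whose loss causes a near absence of fat tissue in people and mice, lies at chr19:8837467-8848683 on the plus strand. Its level was 266.36 and 247.58 FPKM in Ctrl and 231.37 and 228.3 FPKM in cKO. Both cKO libraries lay under both Ctrl libraries, by a margin about as wide as the gap between the Ctrl libraries. Means were 257 ± 13.3 and 230 ± 2.17 FPKM (SD, n = 2 each), a ratio of 0.894. The log2 fold change was -0.16 (95% interval -0.31 to -0.01, limma adjusted p = 0.108). After quantile normalization it was -0.25 with an adjusted p of 0.0207, so the call depends on the scaling. Nearest in pattern were *Athl1* (distance 0.00827), *Tmem238* (0.013) and *Tm4sf1* (0.0161). *Gng3* overlaps it on the opposite strand and read 0.53 to 0.82 FPKM, *AC129217.1* is annotated across it on the same strand and was not analysed here, and the table lists 3 of the 5 RefSeq transcripts of *Bscl2*.

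**Figure D4:**
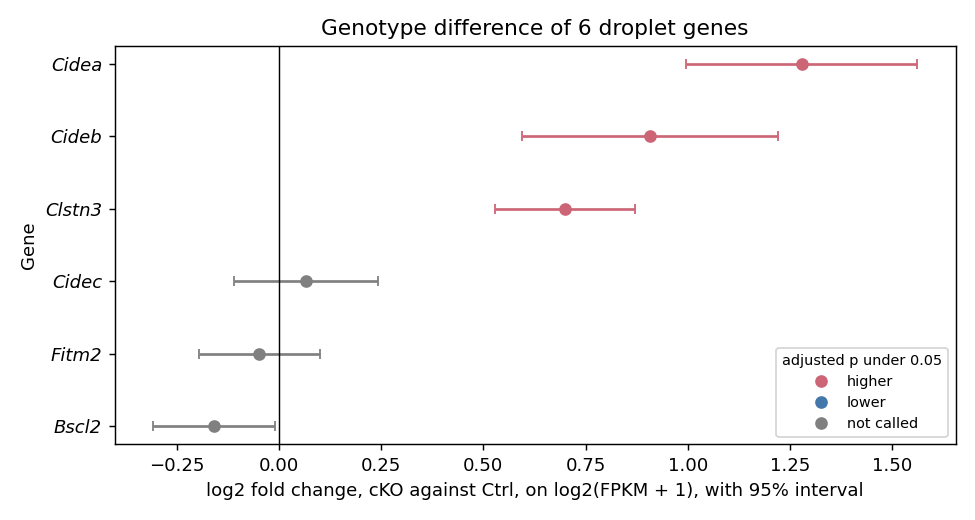
Log2 fold change of cKO against Ctrl on log2(FPKM + 1) for 6 of the 7 genes, with 95% intervals from limma. The intervals of *Cidea*, *Cideb* and *Clstn3* lie above 0, those of *Cidec* and *Fitm2* cross it, and *Bscl2* ends at -0.01 without passing the adjusted test. *Fitm1* is left out because it is listed at 0 in both cKO libraries.

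The next list held genes whose proteins work with the CIDE proteins and calsyntenin 3. Of these 5 genes 1 was called, near the 25.8% of all genes tested, in the higher direction, and 4 were not called, and the median difference was -0.01 on the log2 scale. *Plin1*, the perilipin of white adipocytes that activates CIDEC, read 533.61 and 496.88 FPKM in Ctrl and 502.2 and 476.94 FPKM in cKO (log2 fold change -0.07, limma adjusted p = 0.489, and -0.32 with an adjusted p of 0.0121 after quantile normalization). *Rab8a*, a small GTPase of CIDEC-driven fusion, and its regulators *Tbc1d4* and *Rabif* had log2 fold changes of 0.17, -0.01 and -0.01. *Cidec* was 1.89 and 1.91 times *Plin1* in Ctrl and 2.06 and 2.12 times in cKO. *Cidea* was 0.641 and 0.838 times *Plin1* in Ctrl and 1.99 and 1.76 times in cKO.

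*S100b*, whose product is released from thermogenic adipocytes with the help of the adipocyte form of calsyntenin 3, was the 1 gene of the list called higher. It read 8.9 and 13.38 FPKM in Ctrl and 24.63 and 20.22 FPKM in cKO. The groups did not overlap, and the log2 fold change was 0.97 (SE 0.171, limma adjusted p = 0.00719). The call was lost without Ctrl replicate 1 (adjusted p = 0.0541) and without cKO replicate 1 (adjusted p = 0.0612). *S100b* also marks Schwann cells. Of other genes of those cells, *Mbp*, which encodes a myelin protein, read 65.9 and 58.84 FPKM in Ctrl and 24.18 and 29.23 FPKM in cKO (log2 fold change -1.20, limma adjusted p = 0.00048). *Sox10*, a transcription factor of the lineage, read 2.28 and 1.65 FPKM in Ctrl and 1.03 and 1.04 FPKM in cKO (-0.53, adjusted p = 0.0278). Both were called lower, opposite to *S100b*. The part of nerve RNA in the level of *S100b* was not tested.

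Among 11 partners of seipin and enzymes of droplet formation, 1 was higher (against 12.0% of all genes tested), 2 were lower (against 13.8%) and 8 were not called, the median being -0.04 on the log2 scale. These shares are near those of all genes. *Tmem159*, which encodes the seipin partner LDAF1, fell from 21.2 ± 0.113 to 15.3 ± 0.7 FPKM (SD, n = 2 each, log2 fold change -0.45, limma adjusted p = 0.00292). *Agpat2*, another gene whose loss leads to lipodystrophy, read 1225 and 1116 FPKM in Ctrl and 1124 and 1037 FPKM in cKO and was not called, but after quantile normalization it was called lower (log2 fold change -0.23, limma adjusted p = 0.0372). *Dgat2*, which makes triglyceride at the droplet, fell from 1225 ± 67 to 823 ± 0.099 FPKM (log2 fold change -0.57, adjusted p = 0.00243), whereas the log2 fold change of *Dgat1* was 0.03. *Gpat4*, an acyltransferase that moves onto growing droplets, rose from 44.1 to 63.5 FPKM (0.52, adjusted p = 0.00274). The calls of *Tmem159* and *Dgat2* were lost without Ctrl replicate 1, with adjusted p of 0.0548 and 0.0763.

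In the coat and lipolysis list 5 of 10 genes were higher (against 12.0% of all genes tested), 2 lower (against 13.8%) and 3 not called, and the median was 0.16 on the log2 scale. *Plin2*, the coat protein of small droplets, read 494.76 and 523.64 FPKM in Ctrl and 948.6 and 827.55 FPKM in cKO (log2 fold change 0.80, limma adjusted p = 0.00123). *Plin5*, the perilipin of oxidative tissues, read 21.02 and 26.04 FPKM in Ctrl and 46.63 and 42.93 FPKM in cKO (0.91, adjusted p = 0.00132). *Plin3* rose by 0.47 on the log2 scale, while *Plin4*, a perilipin of white fat, fell by 0.43. *Hilpda* and *G0s2*, inhibitors of the lipase ATGL, rose by 0.28 and 0.26. *Abhd5*, the coactivator of ATGL, was lower (-0.25, adjusted p = 0.0496), and *Pnpla2*, *Lipe* and *Mgll*, the 3 lipases, had log2 fold changes of 0.05, -0.02 and -0.00. After quantile normalization *Lipe* (-0.24) and *Mgll* (-0.21) were called lower, each with an adjusted p of 0.0285 in limma, and *G0s2* (0.0753) and *Abhd5* (0.0563) were not called. Without Ctrl replicate 1, *Plin2* and *Plin5* were the 2 genes of the list still called, with *Plin3* at an adjusted p of 0.0608 and *Plin4* at 0.0668. Without Ctrl replicate 1, Ctrl replicate 2 or cKO replicate 1, the calls of *G0s2* (adjusted p 0.0616 to 0.13), *Abhd5* (0.181 to 0.227) and *Hilpda* (0.0852 to 0.24) were lost, that of *Hilpda* also without cKO replicate 2 (0.122).

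Of 9 regulators of adipocyte genes, 4 were higher (against 12.0% of all genes tested), 3 were lower (against 13.8%) and 2 were not called. *Ppargc1a* and *Ppargc1b*, coactivators of mitochondrial genes, rose by 0.83 and 0.81 on the log2 scale, from 2.07 to 4.46 FPKM and from 3.89 to 7.55 FPKM. *Cebpb* rose by 0.55 and *Esrra*, which encodes their partner ERRα, by 0.30. *Pparg*, *Cebpa* and *Srebf1* fell by 0.25, 0.28 and 0.51, and *Prdm16* and *Nrip1* were not called. The calls of *Esrra* (limma adjusted p 0.066 to 0.115), *Pparg* (0.082 to 0.12) and *Cebpa* (0.0647 to 0.205) were lost without Ctrl replicate 1, Ctrl replicate 2 or cKO replicate 1, that of *Cebpa* also without cKO replicate 2 (0.0858). All 3 genes of the caveolae, the surface pits through which adipocytes take up fatty acids, were lower, with log2 fold changes of -0.58 for *Cav1*, -0.74 for *Cav2* and -0.31 for *Ptrf*, which encodes cavin 1. Without Ctrl replicate 1 *Ptrf* was not called (adjusted p = 0.105).

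**Figure D5:**
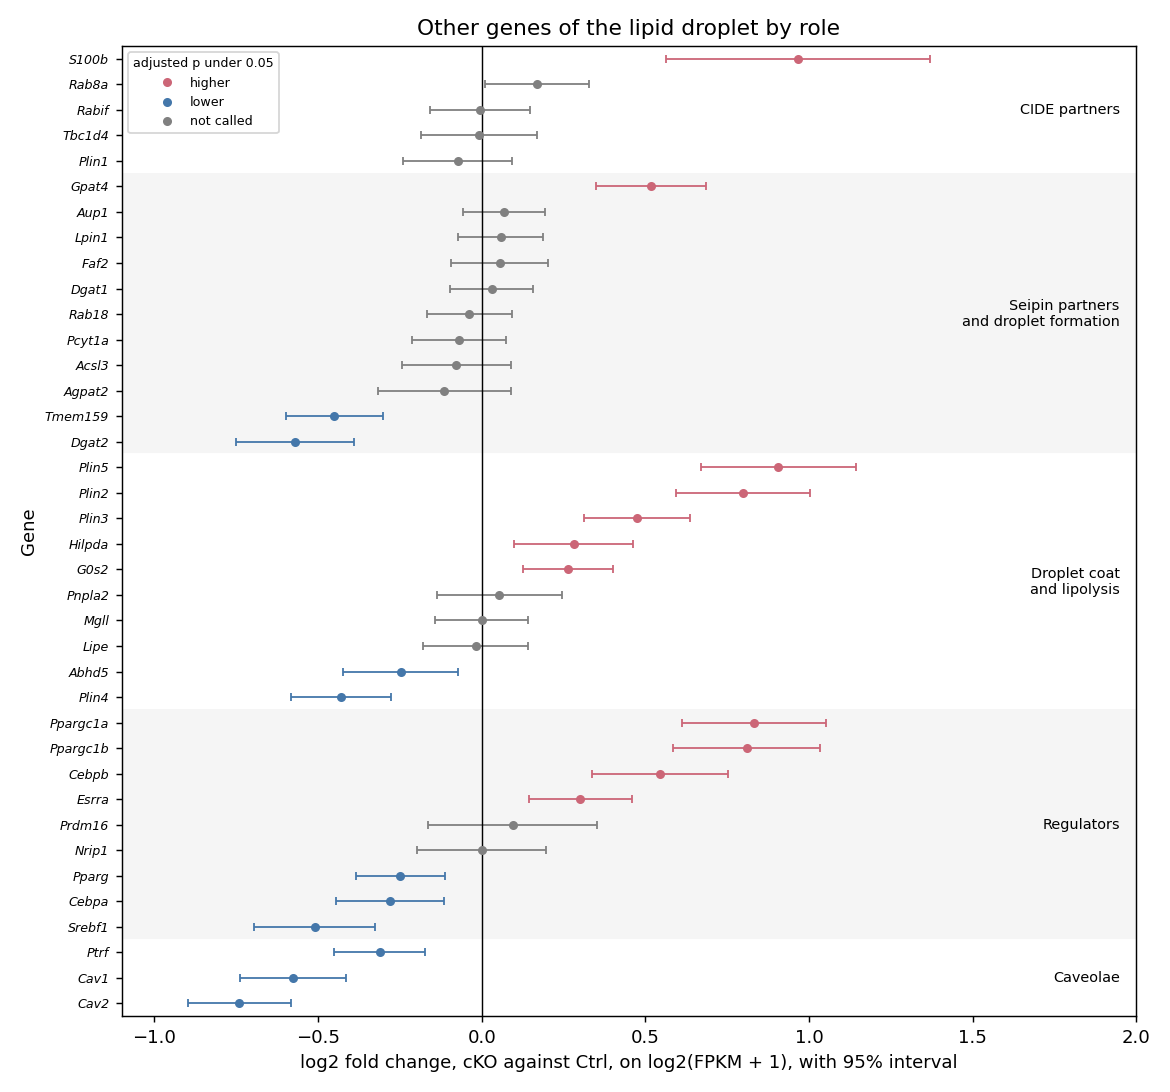
Log2 fold change of cKO against Ctrl on log2(FPKM + 1) with 95% intervals from limma for the genes of these lists, grouped by role and coloured by call. In the CIDE partner, seipin and coat lists *S100b*, *Plin5* and *Plin2* lie highest and *Dgat2*, *Tmem159* and *Plin4* lowest. Most partners of seipin lie near 0.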

How the data were processed

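The authors purified polyadenylated RNA, sequenced single-end reads of 50 bases on a BGISEQ-500 and deposited 1 FPKM value per gene and library to the hundredth. The submitters' processing notes name HISAT2 2.0.4, RSEM 1.2.12 and mm10. No scaling between libraries, strand setting or transcript-level value is given in the sources used here. No per-sample column was left unused, and 24 symbols turned into dates were named by gene ID.

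Libraries were grouped by their labels. Values were analysed as log2(FPKM + 1) in limma 3.58.1 (R 4.3.3, eBayes with a trend, two-sided) for the 12658 genes that averaged 1 FPKM or more over the 4 libraries. Data were simulated for 12658 genes, of which 200 were changed, with noise drawn from a smooth curve of spread against level. In them 63 of 100 genes changed by 0.5 and 92 of 100 changed by 1 on the log2 scale were recovered. Of the unchanged genes, 2 were called. In the real data 3269 genes were called, so these rates may not carry over. Read depth was inferred from the spacing of low FPKM values among 319 genes of at most 400 bases. Only nonzero values that stood for up to about 6 reads were used. The depth chosen was the one at which the largest share of them came to whole reads within 0.1. That share was 84.5% to 90.8%, and as it set the depth it is no separate check of it. As depth was only inferred, no count test was run. Read numbers are approximate, and intervals cover the spread between libraries only.

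The 7 genes, the lists and the marker sets were chosen with earlier results of these data known. The genes named are the 7, every gene of the lists, markers that touch a result, the targeted gene, overlapping genes and the 3 genes nearest in pattern to each of the 7. The alternatives changed the pseudocount (0.1), the filter (none, or a mean of 5 FPKM), the scaling (median-of-ratios or quantile) or the fit (no trend, or replicates as a block), or left out each library in turn. Figures were drawn with matplotlib 3.10.9, and sequences came from RefSeq tables for GRCm38.p6. Part of the Schwann cell marker list is not reported here.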

Additional observations from a re-analysis of the deposited data

How the results depend on the processing

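*Cidea*, *Cideb*, *Clstn3* and *Fitm1* kept their direction and their call in every alternative in which they were tested. The log2 fold change ran from 1.13 to 1.42 for *Cidea* (highest adjusted p 0.0325 in limma), from 0.79 to 1.51 for *Cideb* (0.0454) and from 0.61 to 0.79 for *Clstn3* (0.0311), and the highest adjusted p of *Fitm1* was 0.0366. A mean FPKM of at least 5 removed *Cideb* and *Fitm1* from the test. Quantile normalization turned *Cidec* to -0.034 and called *Bscl2* lower at -0.25 (adjusted p = 0.0207, against 0.0935 to 0.448 in the other alternatives). With each library left out in turn, *Fitm2* ran from -0.11 to 0.014. The *Cidea* to *Cidec* difference was rerun only with 1 added to each FPKM and with each library left out, and kept its sign. As the ratios of the 2 genotypes did not overlap, leaving out a library could not turn it.

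Without the filter 1762 genes were called, 667 higher and 1095 lower. Leaving out a library gave 787 to 2340 calls, 303 to 1072 higher and 484 to 1379 lower, lowest without Ctrl replicate 1. The replicate numbers were not tied to litters or days, and replicate differences in the 2 genotypes correlated with r = 0.01, so they were not taken as pairs. As a block they gave 3383 calls, 1594 higher and 1789 lower, with *Cidea* at an adjusted p of 0.000729, and changed no call of the 7 genes or of the droplet, regulator and caveolae lists, while 4 white adipocyte markers instead of 6 were lower.

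The lists moved more. The coat list had 1 gene lower with a pseudocount of 0.1, without the filter and without the trend. Without the filter the partners of the CIDE proteins had 0 higher, and the regulators 2 higher and 1 lower. Without the trend the regulators had 1 lower, and quantile normalization gave the CIDE partners 1 lower (*Plin1*), the seipin list 3 lower and the coat list 4 higher and 3 lower. With each library left out, the CIDE partners ran from 0 to 1 higher, the seipin list from 0 to 2 lower, the coat list from 2 to 4 higher and 0 to 2 lower, and the regulators from 1 to 2 lower. Genes near 0 changed sign. Median-of-ratios scaling put *Tbc1d4* at 0.0083, *Rabif* at 0.011, *Mgll* at 0.017 and *Nrip1* at 0.015, and quantile normalization put *Tbc1d4* at 0.014, *Rabif* at 0.0039 and *Nrip1* at 0.033. With each library left out, *Tbc1d4* ran from -0.086 to 0.071, *Rabif* from -0.049 to 0.039, *Lipe* from -0.065 to 0.028, *Mgll* from -0.0043 to 0.0036 and *Nrip1* from -0.0702 to 0.0696. The cause was not tested. With 2 libraries a genotype, 63 of 100 differences of 0.5 on the log2 scale were recovered in simulated data in which 200 genes were changed.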
